A study of Mus musculus with 2 samples.

Results

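The FGF receptor genes of the mouse are Fgfr1, Fgfr2, Fgfr3, Fgfr4 and Fgfrl1, and all 5 were taken by symbol from the 43346 annotated genes of the tables. Their 58 annotated transcripts, of 103639 in all, were followed beside the gene levels. The RNA came from the hindbrain of healthy B6NCrl embryos at 10.5 days, males and females pooled, and the labels give no genotype beyond the strain. There was 1 group, of 2 biological replicates: replicate 1 was a pool of 69 embryos and replicate 2 a pool of 51 embryos. Both pools carry the same donor identifier. Each library was made from 10 ng of total RNA longer than 200 nucleotides with synthetic spike-in RNAs added. No treatment, genotype or time point was compared, so the results are levels, isoform shares and the spread between the pools. Paired values stand in the order replicate 1, replicate 2.

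FGF receptors are cell surface proteins that bind fibroblast growth factors together with heparan sulfate. Fgfr1 to Fgfr4 carry an intracellular tyrosine kinase that passes the signal through the adaptor Frs2 to the Ras-MAPK relay, whereas Fgfrl1 binds ligand but lacks a kinase domain. In the early hindbrain, FGF signals from the isthmus, its border with the midbrain, pattern the adjoining tissue. The outside of a kinase receptor holds immunoglobulin-like domains, of which the first can be skipped, an acidic stretch called the acid box, and the third domain, which decides which ligands bind. In Fgfr1, Fgfr2 and Fgfr3 the later part of this domain comes from either of a pair of alternative exons, IIIb, which is typical of epithelia, or IIIc, which is typical of mesenchyme and neural tissue. Fgfr4 has a single exon at this place.

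Some of the third-domain exons are shown, in pairs from different genes. The isoform results rest instead on telling IIIb from IIIc within a gene. The exons shown were read from the GENCODE M21 transcript sequences (mm10). Of the IIIb exons of Fgfr2 and Fgfr3, 148 and 151 bases long, capitals mark the 77 bases identical in both.

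Fgfr2 IIIb, chr7:130199758-130199905, minus strand: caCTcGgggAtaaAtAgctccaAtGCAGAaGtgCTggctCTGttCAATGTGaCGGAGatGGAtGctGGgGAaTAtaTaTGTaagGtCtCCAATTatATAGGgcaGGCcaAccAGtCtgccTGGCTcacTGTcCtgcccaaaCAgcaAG
Fgfr3 IIIb, chr5:33731281-33731431, plus strand: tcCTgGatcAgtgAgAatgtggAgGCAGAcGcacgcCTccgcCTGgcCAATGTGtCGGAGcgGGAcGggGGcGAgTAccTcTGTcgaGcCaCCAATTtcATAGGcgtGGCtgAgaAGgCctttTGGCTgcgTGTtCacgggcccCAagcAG

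The IIIc exon of Fgfr3 has 145 bases and the single exon of Fgfr4 has 139. Capitals here mark the 99 bases identical in these exons.

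Fgfr3 IIIc, chr5:33732117-33732261, plus strand: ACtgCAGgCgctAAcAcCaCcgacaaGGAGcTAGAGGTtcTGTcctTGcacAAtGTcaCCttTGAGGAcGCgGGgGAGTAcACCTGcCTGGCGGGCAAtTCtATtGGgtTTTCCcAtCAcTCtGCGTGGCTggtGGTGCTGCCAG
Fgfr4 single exon, chr13:55160249-55160387, plus strand: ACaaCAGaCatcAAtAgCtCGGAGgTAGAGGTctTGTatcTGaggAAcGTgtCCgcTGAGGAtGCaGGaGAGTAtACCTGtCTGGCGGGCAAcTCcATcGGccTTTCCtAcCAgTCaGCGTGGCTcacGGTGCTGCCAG

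The IIIb exons of Fgfr2 and Fgfr3 were 51.0% identical over the aligned length. Fgfr2 IIIb and Fgfr3 IIIc were 52.6% identical, slightly more than the IIIb pair. Within Fgfr3 the IIIb and IIIc exons were 44.2% identical. The Fgfr4 exon was 68.3% identical to the Fgfr3 IIIc exon, and 59.5% and 47.7% identical to the IIIb exons of Fgfr2 and Fgfr3.

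The libraries held 38170078 and 36382223 counts in annotated genes. All 6 hindbrain markers were at 1 TPM or more in both pools (TPM is transcript abundance corrected for length and scaled to a fixed total). They summed to 211 TPM in replicate 1 and 161 TPM in replicate 2, and the median of their log2 ratios of replicate 2 over replicate 1, from scaled counts, was -0.54. Markers of other tissues were present too, and the pools differed in them as well. The summed level of 6 neuron markers was 1554 TPM in replicate 1, against 1042 TPM in replicate 2, and 2 of the 6 were at least 2-fold higher in replicate 1, as were 3.61% of all genes compared. Surface epithelium markers summed to 94.4 and 147 TPM, with 2 of 6 at least 2-fold higher in replicate 2, against 0.792% of all genes. The neuroepithelial sum was 2244 and 1877 TPM, the mesenchymal sum 624 and 534 TPM, the endothelial sum 116 and 141 TPM, the forebrain sum 23.2 and 19.8 TPM and the muscle sum 10.6 and 16.4 TPM. In bulk RNA of this kind, fewer cells of a type and less RNA per cell cannot be told apart.

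Fgfr2, Fgfr3 and Fgfr1 were the abundant receptors, Fgfrl1 was several-fold lower and Fgfr4 was near the limit of detection. Fgfr2, the receptor best known from limb, lung and inner ear development, was at 76.13 TPM in replicate 1, against 76.93 TPM in replicate 2 (76.5 ± 0.566 TPM, SD, n = 2). Fgfr3, a receptor of neural progenitors and growth plate cartilage, was at 66.88 and 67.15 TPM (67.0 ± 0.191 TPM). Fgfr1, required in the early embryo and at the isthmus, was at 45.78 and 47.67 TPM (46.7 ± 1.34 TPM). Each of these 3 genes was at a similar level in both pools, and their ranges did not overlap. Each rested on at least 4188 counts per library.

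Fgfrl1, the receptor without a kinase domain, was at 10.46 and 10.72 TPM (10.6 ± 0.184 TPM), from 707 and 647 counts. Its level was 4.41-fold below that of Fgfr1. Fgfr4, a receptor known from liver and developing muscle, was at 1.05 and 0.56 TPM (0.805 ± 0.346 TPM). It rested on 82 counts in replicate 1 (95% Poisson interval 65.2 to 102 counts) and 44 counts in replicate 2 (32.0 to 59.1 counts), intervals that cover counting error only. It reached 1 TPM in replicate 1 alone, so 4 of the 5 receptor genes counted as detected, which meant at least 1 TPM in both libraries.

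**Figure D1:**
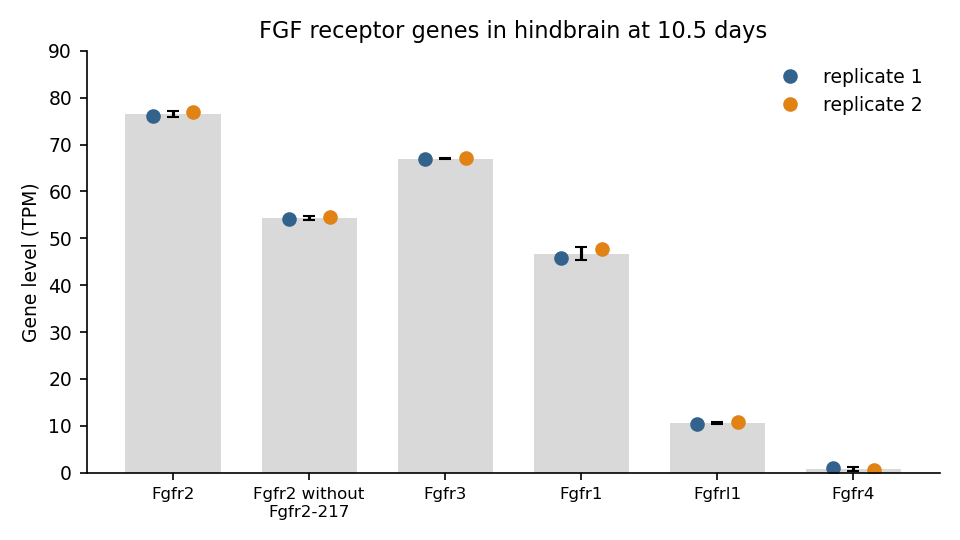
Level of each FGF receptor gene in TPM (vertical axis) in replicate 1 and replicate 2 (points), with the mean (bar) and SD (whisker, n = 2). Fgfr2 stood highest at 76.5 TPM, but without its transcript Fgfr2-217 it was at 54.3 TPM, below Fgfr3.

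The first place of Fgfr2 depended on a single transcript model. Fgfr2-217 has 7 exons and 2425 bases, and it starts far outside the gene: its first exons, 314 bases, lie wholly in exons of Ctbp2, a transcriptional corepressor gene on the same strand. The next exon follows after 2908.8 kb, and the other 2111 bases lie in exons of other Fgfr2 transcripts, so that no base is the model's own. This is not particular to it: Fgfr2-207, Fgfr2-215, Fgfr1-202 and Fgfr3-201, among others, also have no base of their own. Fgfr2-217 was at 22.08 TPM in replicate 1, against 22.37 TPM in replicate 2. Ctbp2 itself was at 97.79 and 100.33 TPM. Without Fgfr2-217 the gene was at 54.05 and 54.56 TPM (54.3 ± 0.361 TPM), which placed it between Fgfr3 and Fgfr1. No read positions were used here, so how many of the reads assigned to this model joined the genes was not tested.

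Because of this model the annotation draws Fgfr2 over 2960.9 kb, chr7:130162451-133123350, minus strand, with 68 other genes inside. All its other transcripts lie within 103.8 kb that end at position 130266263. The other receptor genes are compact: Fgfr1 at chr8:25513654-25575718, Fgfr3 at chr5:33721674-33737068, Fgfr4 at chr13:55152640-55168759 and Fgfrl1 at chr5:108692382-108706924, all on the plus strand. Exons of Fgfr1 overlap the antisense gene Gm16159, which was listed at 0 TPM in both libraries, and the Fgfr3 pseudogene Fgfr3-ps was also listed at 0 TPM. Exons of Fgfr3 overlap 998 bases of G630022F23Rik on the opposite strand. That gene was not analysed here, and reads of the pair cannot be told apart if the counting did not use strand.

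The 4 kinase receptors together amounted to 189.84 TPM in replicate 1 and 192.31 TPM in replicate 2. Fgfr2 made up 40.1% and 40.0% of this sum, Fgfr3 35.2% and 34.9%, and Fgfr1 24.1% and 24.8%. Fgfr4 made up 0.553% and 0.291%. With Fgfr2-217 left out, Fgfr3 took the largest share, 39.9% and 39.5%, against 32.2% and 32.1% for Fgfr2.

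Against the 12634 protein-coding genes detected in both libraries, whose median level was 19.7 TPM, Fgfr2 was higher than 83.1%, Fgfr3 than 80.6%, Fgfr1 than 72.5% and Fgfrl1 than 33.8%. Among 58 receptor tyrosine kinase genes, of which 48 were detected and whose median level was 8.77 and 8.54 TPM, the FGF receptors held 20.9% of the summed TPM in replicate 1 and 22.0% in replicate 2. The highest of the list was Ddr1, a collagen receptor, at 146 and 112 TPM. Fgfr2 ranked 2 and Fgfr3 ranked 3 in both libraries. Ptk7, a receptor of planar cell polarity, ranked 4 at 53.17 and 64.09 TPM, below the range of Fgfr3. Without Fgfr2-217, Fgfr3 ranked 2 in both libraries and Fgfr2 ranked 3 in replicate 1 and 4 in replicate 2. Its range, 54.05 to 54.56 TPM, then lay inside that of Ptk7, so these neighbours do not differ beyond their spread.

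Fgfr1 ranked 5 by mean level, and its range lay inside that of the ephrin receptor Epha7, at 39.6 and 50.41 TPM, so this pair does not differ beyond its spread either. Fgfr4 ranked 50, between the ephrin receptor Epha6, at 1.39 and 0.23 TPM, and Mst1r, the receptor of macrophage-stimulating protein, at 0.54 and 0.67 TPM. The ranges of all 3 overlapped.

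**Figure D2:**
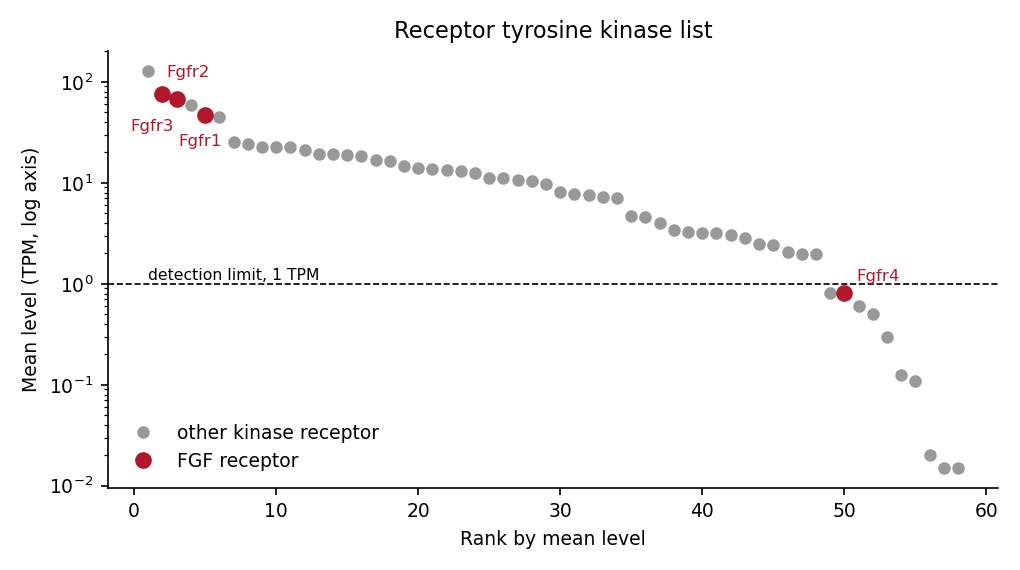
Mean level of 58 receptor tyrosine kinase genes (vertical log axis, TPM) against their rank, with the FGF receptors in red. Fgfr2, Fgfr3 and Fgfr1 ranked 2, 3 and 5, and Fgfr4 ranked 50, below the dashed line at 1 TPM.

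The pools gave nearly the same levels of 4 receptor genes and differed more in Fgfr4. On the log2 scale the ratio of replicate 2 over replicate 1, from counts scaled with TMM (edgeR), was -0.03 for Fgfr1, -0.09 for Fgfr2, -0.11 for Fgfr3, -0.05 for Fgfrl1 and -0.79 for Fgfr4. Of the 5 receptor genes, 0 were at least 2-fold apart. Over all 14385 genes with CPM (counts scaled to the library total) of 1 or more in each library, 4.41% were, 114 higher in replicate 2 and 520 higher in replicate 1. With 1 library on each side these ratios have no test. Scaling on the spike-ins moved the median of all genes by 0.82 and with it Fgfr1, Fgfr2, Fgfr3 and Fgfrl1 to between 0.71 and 0.79, so that the sign of these small ratios depends on the scaling.

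Fgfr4 was the receptor with the widest spread. Its log2 ratio had a 95% counting interval of -1.38 to -0.27 with TMM, and was -0.00 with spike-in scaling, where the median of all genes was 0.82. Among the 5 muscle markers beside it, the myogenic factor Myf5 was at 3.47 TPM in replicate 1, against 0.94 TPM in replicate 2. Actc1, a muscle actin, was at 5.04 and 13.93 TPM, the opposite order, and Myog and Myod1 were at most at 0.27 and 0.21 TPM. The part of muscle cells in the Fgfr4 level was not tested.

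IIIc was the main third-domain form of all 3 receptors that have the choice. Fgfr1 transcripts with the IIIc exon summed to 36.73 TPM in replicate 1 and 38.53 TPM in replicate 2, and those with IIIb to 0.18 and 0 TPM. IIIc thus made up 99.5% and 100% of the level of Fgfr1 transcripts with IIIb or IIIc but not both. Fgfr1-208 (1.93 and 1.57 TPM) and Fgfr1-206 (3.99 and 4.52 TPM), described below, were left out of this share. For the 0 in replicate 2, a count limit of 3 counts in 3668 would be a IIIb share of 0.0818%. It is too low, because the 3668 counts cover whole transcripts and only part of them can tell IIIb from IIIc. It also leaves out the division of reads among transcripts. The annotated Fgfr1 transcripts with IIIb and without IIIc are Fgfr1-214 and Fgfr1-213, and Fgfr1-213 was at 0 TPM in both libraries. By the deposited posterior mean TPM, which averages over the ways of dividing the reads, this pair held 1.19% of the IIIb and IIIc level in replicate 1 and 0.770% in replicate 2. The deposited upper bounds in replicate 2 were 0.490 TPM for Fgfr1-214 and 0.375 TPM for Fgfr1-213, so they allow a larger share than the count limit does.

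Fgfr3 gave 57.75 and 57.09 TPM of IIIc and 1.88 TPM of IIIb in each library, so the IIIc share was 96.8% in both. All of its IIIb level came from Fgfr3-211. The deposited bounds on that transcript ran from about 0 to 3.82 TPM in replicate 1 and to 3.17 TPM in replicate 2, so a level near 0 lay within them. Fgfr3-203 and Fgfr3-212, the other IIIb transcripts, were at 0 TPM, with upper bounds of up to 1.07 and 0.781 TPM.

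Fgfr2 was the receptor with a sizeable IIIb part. Its IIIc transcripts summed to 32.73 and 30.86 TPM and its IIIb transcripts to 8.14 and 8.99 TPM, in the order replicate 1, replicate 2. The IIIc share was 80.1% and 77.4% (78.8% ± 1.87, SD, n = 2), and the IIIb share 19.9% and 22.6%. The ranges of the IIIc share did not overlap between Fgfr2 and either Fgfr1 or Fgfr3. The difference between the genes is a description of 2 pools and was not tested.

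The Fgfr2 IIIb level came from 2 transcripts. Fgfr2-211 was at 3.85 TPM in replicate 1, against 5.49 TPM in replicate 2, with deposited bounds of 2.34 to 4.91 and 3.50 to 6.49 TPM. Fgfr2-208, whose coding sequence is annotated as incomplete, was at 4.29 and 3.50 TPM, with bounds of 2.25 to 5.02 and 1.01 to 3.83 TPM. Each lay above 1 TPM in both libraries, and their order differed between the pools. Fgfr2-211 is 3053 bases long in the deposited tables and 4311 bases in M21. Counting only transcripts with the same length in both, which leaves it out, gave a IIIc share of 89.1%. The other 8 annotated IIIb transcripts of Fgfr2 were at 0 TPM in both libraries: Fgfr2-202, Fgfr2-203, Fgfr2-204, Fgfr2-206, Fgfr2-210, Fgfr2-213, Fgfr2-214 and Fgfr2-216. The highest of their upper bounds was that of Fgfr2-210, 1.12 TPM in replicate 1 and 1.58 TPM in replicate 2.

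**Figure D3:**
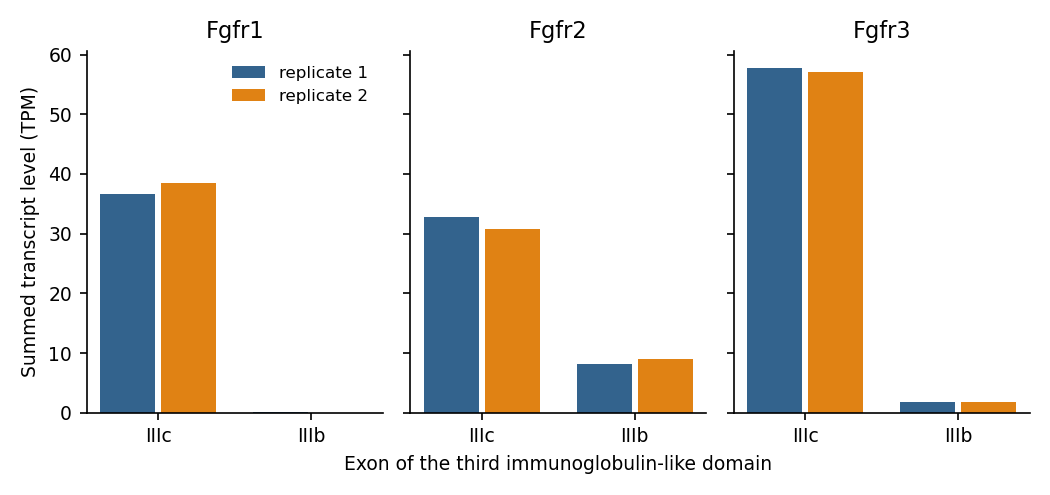
Summed level (TPM, vertical axis) of transcripts with the IIIc or the IIIb exon, but not both, in each library, for Fgfr1, Fgfr2 and Fgfr3. IIIc was higher than IIIb for each gene and library; IIIb was at 8.14 and 8.99 TPM in Fgfr2 and at 1.88 TPM or less in the other genes.

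Beside the IIIb share, all 6 surface epithelium markers were higher in replicate 2, by 0.19 to 1.18 on the log2 scale. Epcam, an epithelial adhesion protein, was at 13.17 and 31.67 TPM, and the cadherin Cdh1 at 7.18 and 8.82 TPM. Esrp1, the epithelial splicing factor that favours IIIb, was at 2.77 and 5.70 TPM (log2 ratio 1.05), whereas its relative Esrp2 was at 2.58 and 2.09 TPM (-0.25). Their part in the IIIb share was not tested. Of the 9 genes listed as regulators of this exon choice, all were detected, 1 was at least 2-fold higher in replicate 2 (0.792% of all genes), none was so in replicate 1 (3.61%), and the median log2 ratio was 0.16, against -0.00 over all genes. The highest of the list were the RNA-binding proteins Hnrnpa1 at 1054 and 1376 TPM, Hnrnpm at 248 and 395 TPM and Ptbp1, a repressor of exon inclusion, at 230 and 286 TPM.

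A few Fgfr1 transcripts broke the rule of either exon. Fgfr1-208, annotated for nonsense-mediated decay, the route that destroys messages with an early stop, was at 1.93 and 1.57 TPM. In M21 it holds IIIb and IIIc together. It is 1563 bases long in the deposited tables and 1903 bases in M21, so whether the quantified model holds both exons was not checked. Its level exceeded that of all Fgfr1 transcripts with IIIb alone in both libraries. Fgfr1-206 retains introns and begins inside the IIIb exon. It was at 3.99 and 4.52 TPM.

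The receptors also differed in the exon of the first immunoglobulin-like domain, whose loss gives the short beta form. In Fgfr3 every annotated transcript that spans the 270-base exon holds it, so its share was fixed at 100% by the transcript models. Fgfr1 included its 267-base exon in 76.9% of TPM in replicate 1 and 73.2% in replicate 2. Fgfr2, whose exon is also 267 bases long, included it in 35.1% and 34.2%. Most of the Fgfr2 level that spans the exon thus lacked the first domain. Forms without it summed to 26.67 and 26.41 TPM, of 76.13 and 76.93 TPM for the whole gene. Fgfrl1 included the equivalent 273-base exon in 79.7% and 75.8%. The range of Fgfr2 lay below those of Fgfr1 and Fgfrl1, the other genes with annotated transcripts of both kinds. Nearly all of the Fgfr1 level without the exon was Fgfr1-203, at 8.36 and 10.31 TPM. It is 3259 bases long in the deposited tables and 3789 bases in M21. Fgfrl1-201 (2656 and 2329 bases) and Fgfrl1-202 (2383 and 2318 bases) also differ. Whether these quantified models hold or skip the exon was not checked, so this order of the genes rests on M21 models.

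In Fgfr2 the share with the first domain differed between the third-domain forms. Among Fgfr2 IIIc transcripts, 43.4% and 43.0% of TPM included the first-domain exon, from Fgfr2-215 with it (14.20 and 13.14 TPM) and Fgfr2-207 without it (18.53 and 17.42 TPM). Among Fgfr2 IIIb transcripts it was 0% in both libraries, although 3 annotated IIIb transcripts carry the exon. Against the 562 and 579 counts of whole IIIb transcripts, the same count limit would be 0.534% and 0.518%. It is again too low, because only part of those counts can tell these forms apart, and it covers counting error alone. By posterior mean TPM these 3 transcripts, Fgfr2-202, Fgfr2-204 and Fgfr2-206, held 4.66% of the Fgfr2 IIIb level in replicate 1 and 6.09% in replicate 2. Their upper bounds reached 0.481 and 0.720 TPM, so shares well above the count limit lie within the deposited bounds. The joining of these exons rests on the transcript models, since no read positions were used.

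The acid box exon was included less in Fgfr2 than in Fgfr3. Fgfr3 included it in 96.8% and 97.1% of the TPM that spans it, where Fgfr3-202 was the form without it at 1.86 and 1.63 TPM. Fgfr3-202 is 2407 bases long in the deposited tables and 2630 bases in M21, so whether the quantified model skips the exon was not checked. In Fgfr1 every annotated transcript that spans the exon holds it, so its share was fixed at 100% by the transcript models. Fgfr2 included its 78-base exon in 45.6% and 42.9%. Both Fgfr2-207 and Fgfr2-211 lack it, while Fgfr2-215 and Fgfr2-208 keep it. Fgfr4 has a single coding transcript, which holds this exon and the first-domain exon, so both shares were likewise fixed at 100%.

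Small alternative splice sites split the receptors further. The exons are printed from the M21 transcripts with the optional bases in capitals. In Fgfr1 the optional 6 bases stand at the end of the acid box exon, and in Fgfr2 they stand at the end of the exon that encodes the membrane span and the stretch after it. The Fgfr2 bases are known for adding a valine and a threonine where Frs2 binds. In Fgfr3 the optional 3 bases open an exon of 149 bases.

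Fgfr1 acid box exon, chr8:25557731-25557820, plus strand: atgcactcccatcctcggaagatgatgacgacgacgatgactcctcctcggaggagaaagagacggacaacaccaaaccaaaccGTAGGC
Fgfr2 exon of 203 bases, chr7:130196172-130196374, minus strand: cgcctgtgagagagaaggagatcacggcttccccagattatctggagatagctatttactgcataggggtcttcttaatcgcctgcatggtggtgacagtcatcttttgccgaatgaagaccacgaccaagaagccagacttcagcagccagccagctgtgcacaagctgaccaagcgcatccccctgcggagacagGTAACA
Fgfr1 exon of 203 bases, chr8:25566711-25566913, plus strand: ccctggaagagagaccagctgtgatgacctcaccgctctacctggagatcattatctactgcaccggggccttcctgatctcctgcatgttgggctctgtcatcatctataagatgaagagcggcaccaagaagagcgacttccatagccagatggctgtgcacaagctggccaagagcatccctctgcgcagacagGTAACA
Fgfr3 exon of 149 bases, chr5:33733254-33733402, plus strand: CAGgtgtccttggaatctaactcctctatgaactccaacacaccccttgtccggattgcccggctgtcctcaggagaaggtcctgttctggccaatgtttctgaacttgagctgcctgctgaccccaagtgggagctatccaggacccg

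The Fgfr1 acid box exon kept GTAGGC in 46.9% of TPM in both libraries. This level came from Fgfr1-201, Fgfr1-203 and Fgfr1-208. Their lengths in the deposited tables and in M21 are 4988 and 5025, 3259 and 3789, and 1563 and 1903 bases. Whether the quantified models hold these optional bases was not checked. Fgfr2 kept GTAACA in 54.9% of TPM in replicate 1 and 56.9% in replicate 2. Fgfr1 ends the matching exon with the same 6 letters and kept them in 95.5% and 96.5%. The Fgfr1 form without them came from Fgfr1-208 alone, the transcript annotated for decay. No Fgfr1 transcript of the coding class lacks them in this exon, so among those forms their presence was fixed by the transcript models. Fgfr3 kept CAG in 31.4% and 28.6%, all from Fgfr3-209.

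Each gene with more than 1 transcript was then ranked by share of its TPM. Fgfr1 was led by Fgfr1-202, a IIIc form of 2460 coding bases with the first domain and without GTAGGC, at 43.3% and 42.8%. Fgfr1-203, which lacks the first domain, followed at 18.3% and 21.6%. Fgfr1-201, the form with the first domain and with GTAGGC, was at 17.3% and 14.5%. The order of these last 2 was the same in both pools.

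Fgfr2 was led by Fgfr2-217 at 29.0% and 29.1%, a model with only 546 coding bases and neither third-domain exon. Fgfr2-207, a IIIc form of 2169 coding bases without the first domain, the acid box or GTAACA, was at 24.3% and 22.6%. Fgfr2-215, a IIIc form of 2520 coding bases with all 3, was at 18.7% and 17.1%. The retained-intron transcript Fgfr2-221 held 11.5% and 10.8%, and Fgfr2-225, another one, 3.34% and 5.28%. Fgfr2-211 held 5.06% and 7.14%, and Fgfr2-208 5.64% and 4.55%.

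Fgfr3 was led by Fgfr3-201 at 43.5% and 38.3%, while Fgfr3-210 was at 9.82% and 15.9%. These models have the same coding sequence, and summed they held 53.3% and 54.2%, a much smaller difference between pools than either alone. Fgfr3-209, with CAG, was at 27.0% and 23.8%. The retained-intron transcript Fgfr3-205 was at 5.19% and 4.91%. Fgfrl1 was led by Fgfrl1-201 at 79.7% and 75.8%, and the rest was Fgfrl1-202, which lacks the first-domain exon.

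Fgfr4 was led by Fgfr4-201 at 87.6% and 100%. The remainder in replicate 1, the retained-intron transcript Fgfr4-202, was 0.13 TPM from 1.74 estimated counts. Fgfr4, with a mean under 5 TPM, was left out of the comparison of shares between pools.

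**Figure D4:**
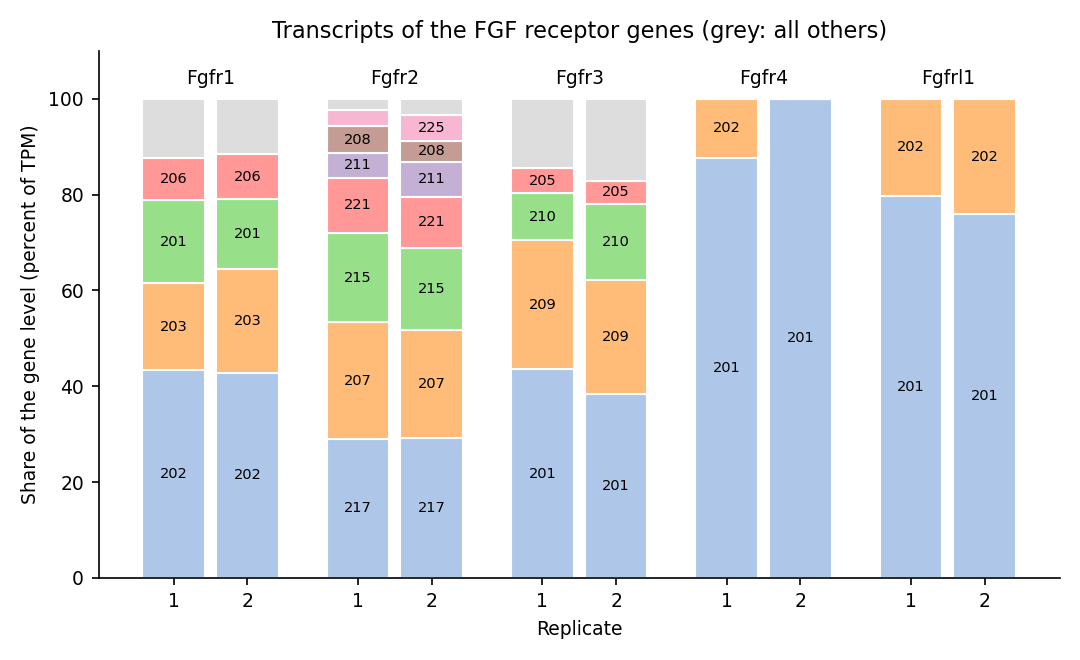
Share of each FGF receptor gene's TPM (percent, vertical axis) in its transcripts, per library, with transcript numbers inside the bars and transcripts below 5% in both libraries in grey. The leading transcript was the same in both pools for all 5 genes, at 29.0% and 29.1% for Fgfr2-217 and 79.7% and 75.8% for Fgfrl1-201.

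The leading share of Fgfr1, Fgfr2, Fgfr3 and Fgfrl1 moved by less than 10 percentage points between the pools, so 0 of 4 passed that limit. Over 7905 genes with several transcripts and a mean of at least 5 TPM, 12.0% passed it. The median leading share of those genes was 68.7%, above the leading shares of Fgfr1, Fgfr2 and Fgfr3 and below that of Fgfrl1. The leading transcript was the same in both libraries in 93.0% of them.

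Transcripts with a retained intron held 12.4% of Fgfr1 TPM in replicate 1 and 14.7% in replicate 2, 17.0% and 18.4% of Fgfr2, and 13.1% and 16.2% of Fgfr3. All 3 were higher in replicate 2, but the direction over other genes was not counted, so this does not set the receptors apart. Over 4479 coding genes with such a transcript and at least 5 TPM, the median share was 8.41%. Of these genes, 63.1% had a lower share than Fgfr1, 70.5% than Fgfr2 and 65.4% than Fgfr3. Fgfrl1 has no such transcript in the tables.

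The genes around the receptors were read from lists by role. With 4.41% of all genes 2-fold apart, a count of 0 in a list of this size is near that background and does not set the list apart. Of 22 FGF ligand genes, 9 were detected. The highest were Fgf15 at 31.89 and 41.17 TPM, the intracellular relative Fgf13 at 37.74 and 22.73 TPM, and Fgf17, an isthmic ligand, at 8.99 and 13.98 TPM. Of 11 ligand genes compared between pools, 1 was at least 2-fold higher in replicate 2, where 0.792% of all genes were, the isthmic organizer ligand Fgf8 at 2.70 and 8.46 TPM (log2 ratio 1.60). Another, Fgf11, was at least 2-fold higher in replicate 1, where 3.61% of all genes were, at 1.41 and 0.64 TPM (-1.21). The median ratio of the list was 0.29.

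Of 16 coreceptors and membrane partners, 13 were detected and 0 of those 13 were 2-fold apart (4.41% of all genes), with a median log2 ratio of 0.21. The heparan sulfate proteoglycan Gpc3 was highest at 217 and 249 TPM, followed by Sdc1 at 73.65 and 98.63 TPM and Gpc1 at 57.82 and 64.33 TPM. Kl and Klb, the klothos that endocrine FGFs need, were at 0.01 TPM or less in both libraries. All 11 genes of heparan sulfate synthesis and trimming were detected and 0 were 2-fold apart (median log2 ratio 0.09). The sulfatases Sulf2 (76.32 and 84.08 TPM) and Sulf1 (77.41 and 74.35 TPM), which trim its sulfate groups, and the chain polymerase Ext2 (61.60 and 58.52 TPM) were the highest.

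All 20 adaptors and Ras-MAPK genes were detected, 0 were 2-fold apart (4.41% of all genes) and their median log2 ratio was -0.00. The kinase Map2k2 was at 207.64 and 182.99 TPM and the GTPase Nras at 96.14 and 118.63 TPM. Of 14 target and feedback genes, 13 were matched, all 13 were detected and 0 were 2-fold apart. Their median ratio was 0.42. The phosphatases Dusp6 and Dusp4, which remove activating phosphates from MAP kinases, went opposite ways: Dusp6 was at 29.27 and 50.48 TPM and Dusp4 at 40.65 and 24.36 TPM. The feedback inhibitor Spry2 was at 24.11 and 26.78 TPM.

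**Figure D5:**
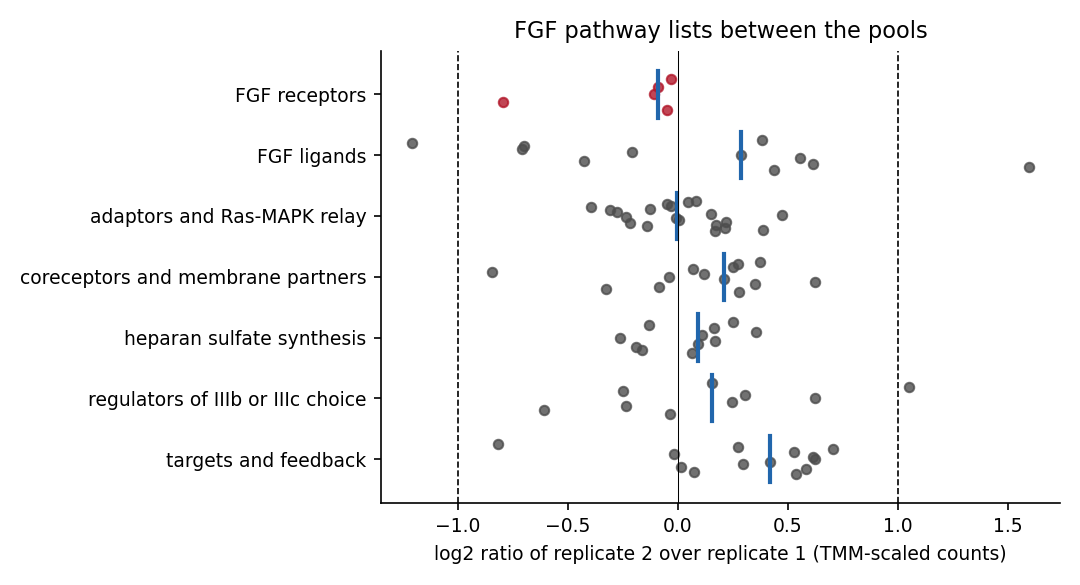
The log2 ratio of replicate 2 over replicate 1 (horizontal axis, TMM-scaled counts) for the FGF receptors and the genes of 6 pathway lists with CPM of 1 or more in each library; blue ticks are list medians and dashed lines mark 2-fold. Fgfr1, Fgfr2, Fgfr3 and Fgfrl1 lay between -0.11 and -0.03, and only Fgf8, Fgf11 and Esrp1 lay past 2-fold.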

How the data were processed

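Gene and transcript tables of both libraries were used. The labels name assembly mm10, and the deposited file notes name annotation M4; for the aligner and quantification program: not given in the sources used here. Per the file headers, the tables hold an expected count (an estimated count, reads shared between features being divided), TPM, FPKM and posterior mean TPM with lower and upper bounds, whose confidence level the sources used here do not give. IsoPct, the deposited percent that each transcript takes of its gene, is given too. Shares in the text were recomputed from TPM. Deposited TPM includes spike-ins, 13.0% of the total in replicate 1 and 7.82% in replicate 2.

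GENCODE M21 identifiers, versions removed, gave symbols, coordinates, exons and sequences: all 58 receptor transcripts matched, 50 with the same length, and 97.9% of all annotated transcripts. Receptor transcripts found in M21 alone were not used here. Exon forms were assigned from M21 exon coordinates, and exons were aligned with MAFFT 7.526. For receptor transcripts of another length in the deposited tables, the exons of the quantified model were not checked. Expected counts were rounded for the ratios (edgeR 4.0.16, R 4.3.3, TMM, prior count 2, CPM of at least 1 in both libraries). With 1 library on each side there was no test; a gene was called at 2-fold and a leading share at 10 percentage points. Alternatives used DESeq2 1.42.0 size factors, total counts, spike-ins, other prior counts, filters and units. Scripts were tested on simulated data (Python 3.11.15, pandas 2.3.3, scipy 1.17.1).

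Genes named were the receptors, receptor transcripts with at least 5% of the gene or a IIIb exon, the 3 highest and the called genes with a mean of at least 1 TPM of each pathway list, and the first 5 and the neighbours of the receptors in the kinase list; other transcripts and markers named were chosen after their values were seen. A gene that this rule names and some exon sequences are not reported here. Members and lists were chosen with earlier results of these data known. Whether the pools are fully independent is not given beyond their embryo numbers, so spreads describe these 2 pools only.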

Additional observations from a re-analysis of the deposited data

How the results depend on the processing

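With 2 libraries, leaving one out returns the other library's value, so such values say little about stability. All 5 receptor genes kept their place in the order under FPKM, posterior mean TPM, rescaled TPM and in each library alone, but 3 did without Fgfr2-217 (chosen after seeing the data), where Fgfr2 fell below Fgfr3. The number detected was 4 with posterior mean TPM, a limit of 5 TPM or replicate 2 alone, and 5 with a limit of 0.5 TPM or replicate 1 alone. At 1.5-fold in place of 2-fold, 1 receptor, Fgfr4, was apart. Of all genes, 634 were at least 2-fold apart with TMM, 3818 with spike-in scaling (3745 higher in replicate 2 and 73 higher in replicate 1) and 3268 with any gene that had a count (1459 and 1809). Posterior mean TPM gave leading shares of 41.2% for Fgfr1, 27.4% for Fgfr2 and 64.9% for Fgfr4, and IIIc shares of 99.0% for Fgfr1 and 96.4% for Fgfr3. Expected counts, which do not correct for transcript length, gave shares of 46.7% for Fgfr1-202, 25.3% for Fgfr2-217 and 46.3% for Fgfr3-201. By these counts Fgfr2-207 led Fgfr2 instead, with 2065.99 counts in replicate 1 and 1741.52 in replicate 2. Fgfr2-217 had 1387.94 and 1261.31 counts. The Fgfr2 IIIc share by expected counts was 84.1%. Transcripts of equal length in both annotations (added after seeing the data) gave IIIc shares of 89.1% for Fgfr2 and 96.7% for Fgfr3, and protein-coding transcripts alone 96.7% for Fgfr3. IIIc stayed the main form of all 3 receptors under each of these. Genes with a leading share at least 10 points apart numbered 950, against 291 at 20 TPM or more, and 170 were 20 points apart. The cause was not tested for shifts other than those that the filter or threshold makes. No paired analysis was possible because there is 1 group. Depth limits Fgfr4 most, at 82 and 44 counts.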

Other observations

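Because spike-ins took different shares of TPM in the libraries, the receptor levels were also scaled to annotated genes alone. On that scale Fgfr2 was at 87.5 TPM in replicate 1, against 83.5 TPM in replicate 2, Fgfr3 at 76.9 and 72.8 TPM, Fgfr1 at 52.6 and 51.7 TPM, Fgfrl1 at 12.0 and 11.6 TPM and Fgfr4 at 1.21 and 0.608 TPM. Here all 5 receptors were lower in replicate 2, whereas on the deposited scale Fgfr1, Fgfr2, Fgfr3 and Fgfrl1 were slightly higher there. The SD of Fgfr3 rose from 0.191 to 2.87 TPM between these scales.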
